A study of Mus musculus with 10 samples.

Results

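Binding of C/EBPβ was compared between undifferentiated 3T3-L1 cells (0 h) and cells 6 h after differentiation had been induced, by pairing the peaks of both deposited lists. The members are all C/EBPβ peaks, selected by target and time alone: 10359 at 0 h and 20746 at 6 h, which are 31105 of the 49015 intervals listed for the series. Peaks of the 2 times formed a pair where they shared 1 bp or more. This gave 7207 one-to-one pairs, on which ranks and widths were compared.

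3T3-L1 is an established mouse fibroblast line that turns into adipocytes in culture when it is given an adipogenic hormone mixture. Both C/EBPβ libraries came from this line, grown in the same serum-containing medium, and were made from crosslinked nuclear lysates with the same antibody. The labels do not give the agents that induced differentiation. The glucocorticoid receptor (GR) was profiled at 6 h with antibodies from 2 suppliers, and acetylation of histone H3 lysine 9 (H3K9ac) at 0, 24 and 240 h, and these lists serve below as readouts that did not enter the pairing. Every factor and time is 1 library, so no value has a replicate error, and intervals in the text are 95% intervals of counting error alone. Read totals are not in the lists, so the depth is unknown, heights were ranked within each list, and a site absent from one list can still be bound below its threshold. The lists hold no expression values, so the identity of the cells was not checked against marker genes.

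C/EBPβ is a basic leucine zipper transcription factor that binds DNA as a dimer. In 3T3-L1 cells it is induced within hours of the hormone mixture and acts upstream of Pparg and Cebpa, whose products drive the adipocyte programme. GR is a nuclear receptor that binds DNA when glucocorticoid is present, and a glucocorticoid is commonly part of the mixture. H3K9ac marks active promoters and enhancers, and the deposited H3K9ac lists hold only regions outside transcription start sites that were enriched at one time relative to another.

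The peaks of a pair mostly had close centres, which pairing by overlap in part sets. The centres of the 2 peaks of a one-to-one pair were a median of 32 bp apart, with quartiles of 14.5 and 64.3 bp, and 66.0% (64.9 to 67.1%) of pairs had centres within 50 bp. The median pair shared 100% of its shorter peak. The 0 h peak lay wholly inside the 6 h peak in 2784 pairs (38.6%, 37.5 to 39.8%), the reverse held in 1385 pairs (19.2%, 18.3 to 20.1%), and 2 pairs with identical boundaries are in both counts. In the other 3040 pairs (42.2%, 41.0 to 43.3%) each peak extended past the other on one side.

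Few sites split or merged between the lists. The 7385 paired peaks at 0 h and 7396 at 6 h formed 7326 groups of overlapping peaks, of which 98.4% were one-to-one. In 60 groups 1 peak at 0 h met 2 at 6 h, and in 1 group it met 3. In 49 groups 2 peaks at 0 h met 1 at 6 h, in 1 group 3 met 1, and in 8 groups 2 met 2. The 69 peaks at 0 h that met more than 1 peak had a median width of 498 bp against 271 bp for those that met 1, and 58 such peaks at 6 h had 664 bp against 312.5 bp.

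The split into 3 lay on chromosome 6 (mouse build mm8, coordinates as deposited), where a 0 h peak from 13696928 to 13697905 had a height of 13 over a width of 977 bp. At 6 h it was met by peaks from 13696891 to 13697296, from 13697342 to 13697510 and from 13697548 to 13697912, with heights of 23, 13 and 17. The merger of 3 lay on chromosome 5, where 0 h peaks with heights of 15, 40 and 71 were all met by a single 6 h peak from 32139074 to 32139976 with a height of 48. The strongest split by fold enrichment among the 0 h peaks that met 2 was a broad one on chromosome 6 from 128803896 to 128805071. It had a height of 125 at 0 h and was met by 2 narrower 6 h peaks with heights of 68 and 81.

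Overlap was rarely marginal. No one-to-one pair shared fewer than 106 bp, and all 28 overlaps under 100 bp occurred in groups of 3 or more peaks. The one-to-one pairs with the shortest overlaps were on chromosome 18 at 13745063 to 13745324 (106 bp shared, heights 15 at 0 h and 14 at 6 h), on chromosome 18 at 13933039 to 13933157 (118 bp, the whole width of the 0 h peak, heights 12 and 14) and on chromosome 9 at 54542729 to 54542921 (120 bp, heights 15 and 13). Just outside the pairing rule were new 6 h peaks at gaps of 12, 12 and 13 bp from a 0 h peak, on chromosomes 14, 11 and 1 with heights of 25, 14 and 25. Such near misses numbered 99 at gaps under 100 bp, and in 11 of them the nearest 0 h peak had no partner of its own.

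Height ranks were only loosely kept between the 2 times. A percentile of 100 stands for the highest peak, and equal heights share the mean rank. Within the whole lists, paired peaks had a median percentile of 60.7 at 0 h and 70.9 at 6 h, and the median change was 6.56 points (5.70 to 7.60). This shift depends on the length of the 6 h list: with that list limited to its highest peaks, as many as at 0 h, the median change was -2.22 points (-2.92 to -1.19). Ranks were therefore also taken among the 7207 pairs alone, where the median change was -0.29 points and the middle 50% of pairs lay between -21.1 and 20.3 points. Spearman's rho between the percentiles at 0 and 6 h was 0.40 over these pairs, which share the genome position and the threshold of the lists. With 1 library per time, changes of rank cannot be told apart from a difference between the libraries.

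A change of 25 points or more among the pairs is called a rise or a fall below. At the low end this covers few units of height, since the lowest quartile of pairs at 0 h spans heights of 12 to 15 and the second 16 to 20. By this measure 1524 of 7207 pairs rose (21.1%) and 1512 fell (21.0%), and 4171 moved by less. Pairs that rose had a median height of 15 in the 0 h list and 33 in the 6 h list. For those that fell the medians were 29 and 16. No pair of the lowest quartile at 0 h fell by this much and none of the highest quartile rose, since the scale ends there.

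The highest quartile of pairs kept its members more often than the others, and an end quartile can be left only upward or only downward. Pairs hold only sites listed at both times. In the whole 0 h list, 1149 of 2275 peaks of the lowest quartile had no 6 h partner, against 182 of 2550 of the highest. Of 1837 pairs in the highest quartile at 0 h (heights 32 to 134), 887 were in the highest quartile at 6 h (48.3%, 46.0 to 50.6%) and 150 in the lowest (8.17%, 6.999 to 9.51%). Of 2011 pairs in the lowest quartile at 0 h (heights 12 to 15), 753 stayed lowest (37.4%, 35.4 to 39.6%), and 199 reached the highest quartile (9.90%, 8.67 to 11.3%). Of the second and the third quartiles, 27.3% and 29.4% stayed, and 16.4% and 24.3% were in the highest quartile at 6 h. At the top of the list the turnover was large: of 700 pairs in the highest decile at 0 h, 223 (31.9%, 28.5 to 35.4%) were in the highest decile at 6 h and 98 (14.0%, 11.6 to 16.8%) were in the lower 50%.

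**Figure D1:**
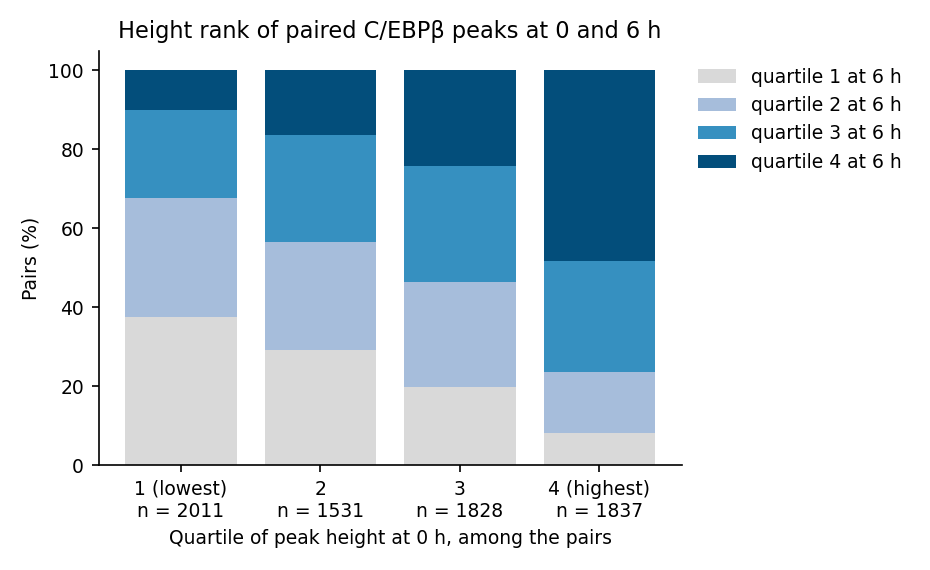
Bars show, for the pairs of each quartile of peak height at 0 h (x axis, lowest to highest), the percentage in each quartile of height at 6 h (y axis, shades), with quartiles taken among the 7207 one-to-one pairs. The darkest shade grows from 9.90% of the lowest quartile to 48.3% of the highest, and every quartile at 0 h is spread over all quartiles at 6 h.

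The 3 largest rises started at the lowest height that the lists hold. On chromosome 19 the height at 27403892 to 27404223 was 12 at 0 h (percentile 5.95 of the whole list) and 67 at 6 h (percentile 99.1), and the 6 h peak overlapped a GR peak with a height of 95. On chromosome 10, the site at 52088148 to 52088493 went from a height of 12 to percentile 98.4 at a height of 60, overlapped a GR peak with a height of 18 and was within 1 kb of an H3K9ac region of 240 h. The site on chromosome 2 at 59877691 to 59877870 reached a height of 63 (percentile 98.8). It overlapped no GR peak and had no listed H3K9ac region within 1 kb. Rises of this size thus occurred with and without an overlapping GR peak.

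The 3 largest falls all ended at a height of 12 (percentile 6.01). Their 6 h peaks overlapped no GR peak and had no listed H3K9ac region within 1 kb. The first, on chromosome 11 from 96638739 to 96639131, reached 101 in height and 36.07 in fold enrichment at 0 h, which placed it at percentile 99.7. The next 2, with 0 h heights of 63 and 55, were on chromosome 6 from 117873279 to 117873499 and on chromosome 3 from 89999096 to 89999475. These sites were among the highest 5% of the list in undifferentiated cells and at its lower end 6 h later.

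Listed peaks were broader at 6 h, both in the whole lists, with median widths of 256 bp at 0 h and 300 bp at 6 h, and at paired sites. Widths were not ranked but compared in bp between single libraries of unknown depth. A difference between the libraries cannot be told apart from broader binding. Among the pairs, width grew in 4519 (62.7%, 61.6 to 63.8%) and shrank in 2667 (37.0%, 35.9 to 38.1%), with a median change of 33 bp (29 to 36) and quartiles of -32.5 and 125 bp. The gain was 56 bp (51 to 63) in the lowest quartile of pairs by 0 h height, 43 bp (36 to 51) and 26 bp (19 to 32) in the next quartiles, and 3 bp (-5 to 9) in the highest. Width rose with height within each list, and height ranks were only loosely kept. Grouping by 0 h height therefore favours larger gains in the lower quartiles, and no grouping by 6 h height was made. Width moved together with rank. Pairs that rose gained a median of 106 bp and 83.8% of them were wider at 6 h, while pairs that fell lost a median of 24.5 bp and 37.7% were wider. Height and width are read from the same signal, so they are not independent measures.

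The largest gains of width came with rank changes among the pairs of 15.6, 1.26 and 40.8 points, so only the third of them also counted as a rise. On chromosome 6, a peak of 225 bp at 36749649 to 36749874 was 1495 bp wide at 6 h, with heights of 15 and 21. Another on chromosome 6, at 114747224 to 114747931, went from 707 to 1676 bp with heights of 35 and 39, and 1 on chromosome 3 at 143773052 to 143773422 went from 370 to 1296 bp with heights of 15 and 30 and a GR peak. The largest loss, on chromosome 11 at 32124769 to 32125708, took a peak of 939 bp and height 114 to 192 bp and height 23. The 2 next losses were at weak sites: on chromosome 8 at 64498708 to 64499437 the height was 12 at both times, and on chromosome 7 at 44273604 to 44274255 it was 14 and 17.

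Peaks without a partner differed in width from paired peaks of the same height quartile, in opposite ways at the 2 times. In the 0 h list, lost peaks (those with no 6 h partner) were narrower in every quartile of height: medians were 206 against 229.5 bp in the lowest quartile and 274.5 (254 to 289) against 329 bp (323 to 336) in the highest. Heights were not equal within the highest quartile, where their medians were 33 for lost and 39 for paired peaks at 0 h and 31 for new and 37 for paired peaks at 6 h. In the 6 h list, new peaks (those with no 0 h partner) were broader in the lower 3 quartiles, with 251 against 224 bp, 276 against 253 bp and 319 (313 to 324) against 287 bp (281 to 295). In the highest quartile the medians were 391 (383 to 397) and 381 bp (376 to 390), whose intervals overlap.

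**Figure D2:**
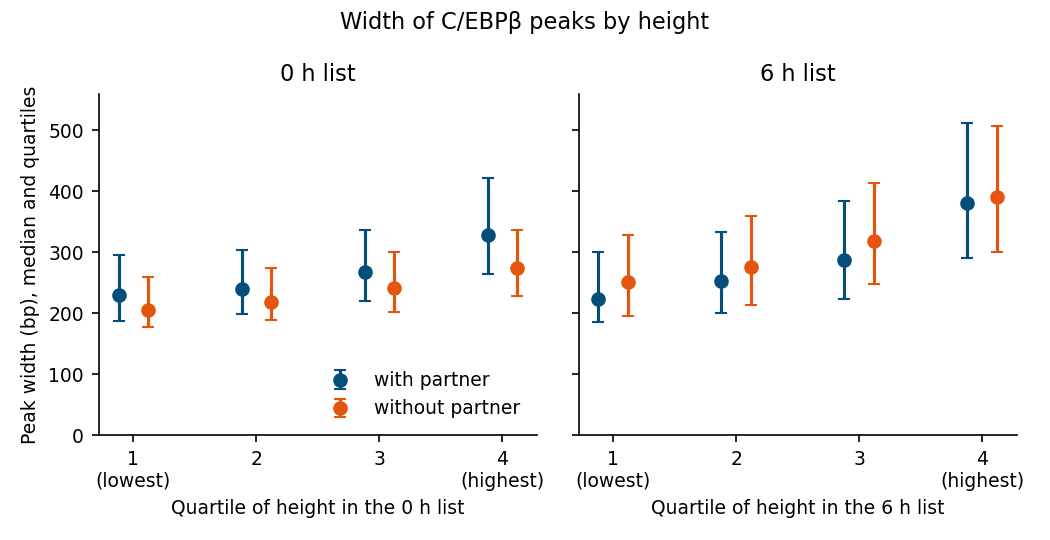
Points are median peak widths in bp (y axis) with bars to the quartiles, by quartile of height within the 0 h list (left) and the 6 h list (right), for peaks with and without a partner in the other list. Lost peaks sit below paired peaks at 0 h, with 274.5 against 329 bp in the highest quartile, and new peaks sit above paired peaks in the lower 3 quartiles at 6 h.

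The 13350 new peaks at 6 h mostly lay 10 kb or more from a 0 h peak. Their median gap to the nearest 0 h peak was 32.3 kb, with quartiles of 10.0 and 87.4 kb. Of these, 696 (5.21%, 4.85 to 5.60%) were under 1 kb from a 0 h peak, 2628 (19.7%, 19.0 to 20.4%) were 1 to 10 kb away, 7100 (53.2%, 52.3 to 54.0%) were 10 to 100 kb away and 2926 (21.9%, 21.2 to 22.6%) were 100 kb or more away. The gap of a new peak to the nearest other 6 h peak had a median of 10.7 kb, and that list is longer. Between paired 0 h peaks and their nearest other 0 h peak the median was 26.0 kb. For lost 0 h peaks it was 34.9 kb, so the distance of new peaks from 0 h sites was within the range of distances among the 0 h sites themselves. Under 10 kb from a 0 h peak were 24.9% of new peaks. Of paired and lost 0 h peaks, 28.7% and 23.7% were that close to another 0 h peak. Random positions were not compared.

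Under 1 kb the gaps declined unevenly, from 99 new peaks at gaps under 100 bp to 43 at 900 to 1000 bp. The median height of new peaks was 16 in all 4 classes of gap, and the upper quartile was 21 in the nearer 3 and 20 at 100 kb or more. Median widths were 301, 303, 294 and 277 bp from the nearest class to the farthest. The 2974 lost peaks had a median gap of 22.2 kb to the nearest 6 h peak, and 31.6% (30.0 to 33.3%) of them were under 10 kb from one.

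**Figure D3:**
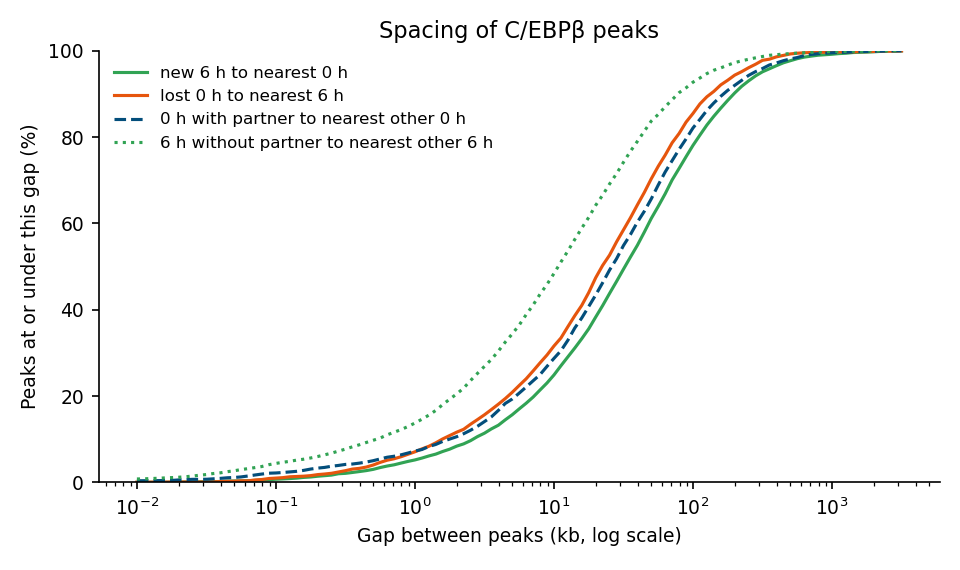
Curves give the percentage of peaks (y axis) whose gap to the nearest peak of the named list is at or under the value on the x axis (kb, log scale). The curve of new 6 h peaks to 0 h peaks has a median of 32.3 kb, against 26.0 kb between paired and other 0 h peaks, and that of new peaks to other 6 h peaks has 10.7 kb.

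New peaks were more often found around 0 h sites that were kept. At least 1 new peak lay within 10 kb of 2499 of the 7385 paired 0 h peaks (33.8%, 32.8 to 34.9%) and of 614 of the 2974 lost ones (20.6%, 19.2 to 22.1%). At least 3 new peaks lay around 182 kept sites (2.46%, 2.13 to 2.84%) and 25 lost ones (0.841%, 0.570 to 1.24%). The height of the 0 h peak made less difference, with 28.4% (26.6 to 30.3%) in the lowest quartile of the 0 h list and 32.3% (30.5 to 34.1%) in the highest.

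When peaks of both lists were joined at gaps under 10 kb, 16600 stretches resulted. Of these, 6701 (40.4%) held peaks of both times, 7949 (47.9%) held 6 h peaks alone and 1950 (11.7%) held 0 h peaks alone. Stretches with 5 or more 6 h peaks numbered 219, of which 15 held no 0 h peak. Peaks of both times joined the stretches, which favours stretches that hold both. The 2 largest stretches held 15 peaks at 6 h, 10 of them new, and 5 at 0 h. They lay on chromosome 11 from 86386369 to 86455514, with 5 GR peaks and 3 H3K9ac 24 h regions, and on chromosome 6 from 115329952 to 115390533, with 6 GR peaks and 2 such regions. The largest without a 0 h peak was on chromosome 12 from 31639687 to 31664765, with 7 peaks at 6 h, 1 GR peak and no H3K9ac 24 h region. These stretches were picked after their values had been seen.

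Windows of 100 kb with the most new peaks held 12 each. The window on chromosome 11 from 67300000 to 67400000 had 3 C/EBPβ peaks at 0 h and 14 at 6 h, 1 GR peak and 5 H3K9ac 24 h regions. Its 0 h peaks had heights of 15, 66 and 22, and the first of them was lost. The 2 kept sites had heights of 34 and 16 at 6 h, below the 37 of the highest new peak, which is the one that overlapped the GR peak. The other 2 windows, on chromosome 6 from 17000000 and on chromosome 17 from 79600000, held 7 and 5 GR peaks.

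**Figure D4:**
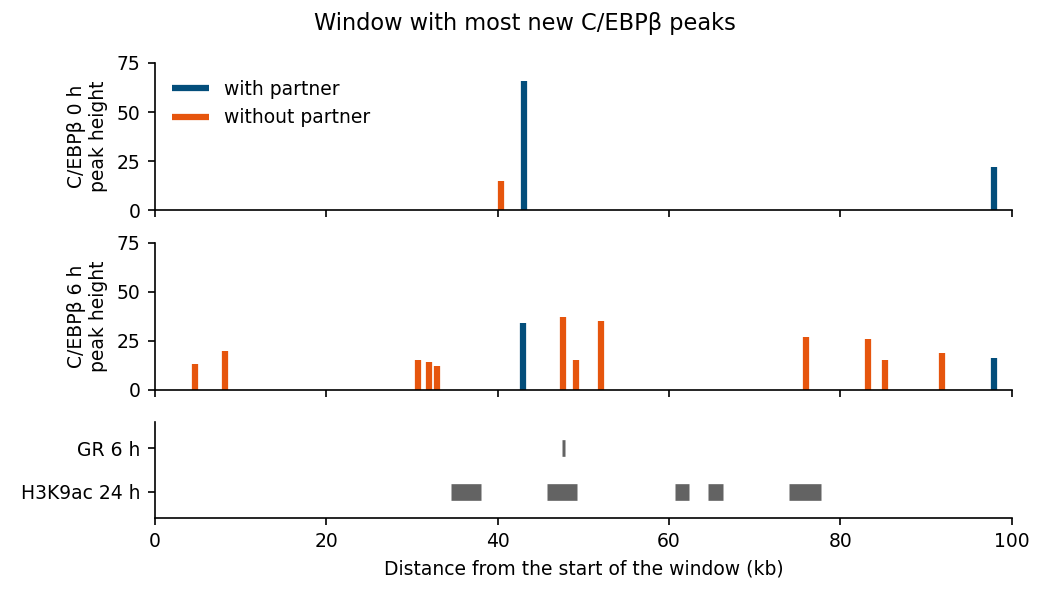
Map of the window on chromosome 11 with most new C/EBPβ peaks: bars give the authors' peak height (y axis) against the distance from the window's start (kb) at 0 h (top) and 6 h (middle), and blocks give GR 6 h peaks and H3K9ac 24 h regions (bottom). The 0 h list has 3 peaks and the 6 h list 14, of which 12 are new.

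The 3 highest new peaks in each of the farthest and nearest classes of gap all overlapped GR, which 32.1% of new peaks in the highest quartile of the 6 h list did. The 3 highest at 100 kb or more were on chromosome 2 from 118574557 to 118574919 (height 75, GR height 17), on chromosome 8 at 96743665 to 96744317 (height 75, GR height 47) and on chromosome 12 at 47849854 to 47850248 (height 68, GR height 19). The 3 highest under 1 kb were all on chromosome 6, at 115387237 to 115387862, 138104158 to 138104659 and 54887179 to 54887639. Their heights were 79, 75 and 60, their GR heights 29, 15 and 15, and they stood 146, 824 and 647 bp from 0 h peaks with heights of 37, 61 and 22. The 3 highest lost peaks had no GR peak, as was the case for all but 9 of the 2974 lost peaks (0.303%), against 14.3% of kept 0 h peaks with one. These were on chromosome 6 from 108809423 to 108810024 (height 86), on chromosome 4 at 131786059 to 131786299 (height 80, fold enrichment 40.4) and on chromosome 5 at 105594410 to 105594678 (height 64).

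GR peaks went with the pairs that rose. Of the 1524 risen pairs, 397 overlapped a GR 6 h peak (26.0%, 23.9 to 28.3%), and of the 1512 fallen pairs 43 did (2.84%, 2.12 to 3.81%), a difference of 23.2 points (20.9 to 25.6). Pairs that moved by less had 13.5% (12.4 to 14.5%). The difference was 27.3 points (22.6 to 31.8) in the second quartile by 0 h height and 47.1 points (39.99 to 54.0) in the third. Pairs that start at a like rank are called risen or fallen by their 6 h height, with which the GR share climbed. These values within quartiles are therefore not a separate check on the difference. Read the other way, 39.7% (36.7 to 42.7%) of the 1001 pairs with GR rose, against 21.1% of all pairs, and 4.30% (3.20 to 5.74%) fell, against 21.0%. The median change among the pairs was 16.5 points (14.2 to 19.4) for pairs with GR and -3.05 points (-3.84 to -1.83) for pairs without it.

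The share of pairs with GR followed the 6 h height more steeply than the 0 h height. By quartile of 0 h height it was 10.3%, 11.5%, 14.1% and 19.6% from lowest to highest. By quartile of 6 h height it was 1.75%, 5.23%, 11.96% and 36.4%. A comparison at like 6 h rank was therefore made, where pairs are called risen or fallen by their 0 h height. It used quartiles of the whole 6 h list. In its highest quartile GR overlapped 10 of 146 fallen pairs (6.85%, 3.76 to 12.1%), 23.9% (22.1 to 25.8%) of pairs that moved by less, 31.3% (28.7 to 34.0%) of risen pairs and 32.1% (30.0 to 34.2%) of new peaks. Risen exceeded fallen pairs by 24.4 points (18.5 to 28.6) there and by 5.55 points (2.14 to 9.30) in the third quartile. New peaks differed from risen pairs by 0.783 points (-2.63 to 4.14) in the highest quartile and by 4.07 points (0.445 to 6.95) in the third.

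Median heights in that quartile were 28 for fallen pairs, 38 for pairs that moved by less, 37 for risen pairs and 31 for new peaks, so height was not fully equal within it. In the lowest quartile, where median heights were 12 and 13, new peaks had GR in 6.01% (5.30 to 6.82%) against 1.06% (0.414 to 2.70%) of pairs that moved by less. Fallen pairs had the lowest GR share in each of the upper 3 quartiles, although in the third their 4.18% (2.72 to 6.36%) overlapped the 5.12% (3.94 to 6.62%) of pairs that moved by less. GR was profiled at 6 h alone, so its presence at these sites at 0 h is not known from these data.

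H3K9ac regions of 24 h followed the same order at a lower level. They lay within 1 kb of 72 risen pairs (4.72%, 3.77 to 5.91%) and 11 fallen pairs (0.728%, 0.407 to 1.298%), a difference of 3.997 points (2.88 to 5.22). Of the 176 pairs near such a region 40.9% (33.9 to 48.3%) rose, against 21.1% of all pairs, and 6.25% fell, against 21.0%. Of the 97 among them without GR 38.1% (29.1 to 48.1%) rose, against 18.2% of all pairs without GR, and 11.3% fell, against 23.7%. In the highest quartile of the 6 h list these regions lay near 6.94% (5.89 to 8.15%) of new peaks and 5.37% (4.21 to 6.83%) of risen pairs. They lay near 0 of 146 fallen pairs, which allows a share of up to 2.05% by a limit of 3 counts and of 2.56% by the Wilson interval. In the third quartile risen minus fallen was 1.45 points, with an interval (-0.452 to 3.75) that includes 0.

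**Figure D5:**
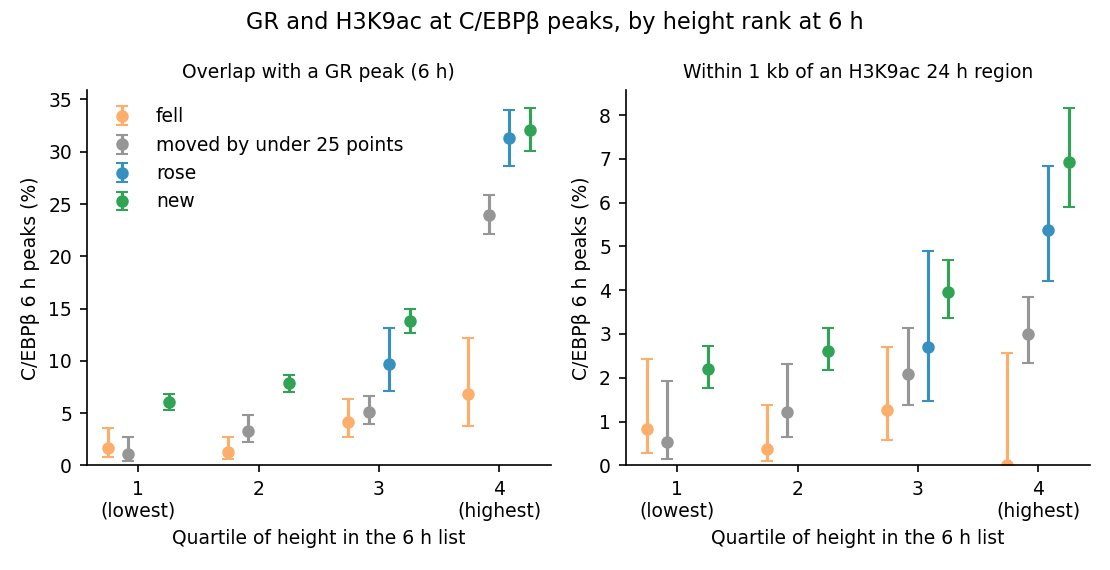
Points are the percentages of C/EBPβ 6 h peaks (y axis) that overlap a GR peak (left) or lie within 1 kb of an H3K9ac 24 h region (right), with 95% Wilson intervals, by quartile of height in the 6 h list and by class (fell, moved by under 25 points, rose, new). In the highest quartile GR shares run from 6.85% of fallen pairs to 32.1% of new peaks.

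For the other H3K9ac lists the difference between risen and fallen pairs over all pairs had an interval that includes 0. Regions of 0 h lay near 6.10% of risen and 7.87% of fallen pairs, a difference of -1.77 points (-3.60 to 0.0489). With other settings it ranged down to -3.97 points and its interval left out 0 in 5 of them. For regions of 240 h the difference was -0.643 points (-2.39 to 1.10), and in the third quartile of the 6 h list it was -3.92 points (-6.85 to -0.928). In the highest quartile of the 6 h list, regions of 0 h lay near fewer new peaks than paired sites, by an amount that depended on the class. They lay near 3.39% (2.67 to 4.29%) of new peaks and 9.44% (8.23 to 10.8%) of pairs that moved by less, a difference of -6.04 points (-7.58 to -4.54). Fallen pairs had 8.90%. Risen pairs had 5.37% (4.21 to 6.83%), from which new peaks differed by only -1.98 points (-3.60 to -0.513).

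The readouts of new peaks also changed with their distance from 0 h sites. GR overlapped 14.1%, 14.0%, 12.4% and 10.5% of new peaks from the nearest class of gap to the farthest, and under 10 kb exceeded 100 kb or more by 3.53 points (1.91 to 5.15). H3K9ac 0 h regions lay near 8.33% (6.502 to 10.6%) of new peaks under 1 kb and 1.95% (1.51 to 2.52%) of those at 100 kb or more. Such a region can lie near both a new and an older peak, so these shares are in part set by the distance itself. For H3K9ac 24 h regions the shares fell from 5.17% to 2.26%, and for 240 h regions they were 4.45% and 4.17%.

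The shares of risen and fallen pairs varied between chromosomes, although for most of them both intervals included the shares of all pairs. The chromosomes named here were picked after their values had been seen, and the intervals are not adjusted for that choice. Pairs rose in 13.2% (9.62 to 17.7%) of cases and fell in 30.1% (24.9 to 35.8%) on chromosome 7, and in 15.3% (12.01 to 19.4%) and 28.8% (24.4 to 33.6%) on chromosome 11, against 21.1% and 21.0% of all pairs. On chromosome 6, which held most pairs (736), 24.9% (21.9 to 28.1%) rose and 16.2% (13.7 to 19.0%) fell. On chromosome 16 the shares were 26.4% (21.2 to 32.3%) and 16.3% (12.2 to 21.5%), and on chromosome 17 they were 17.8% (13.8 to 22.6%) and 28.4% (23.6 to 33.9%). The fallen interval of chromosome 16 and the risen interval of chromosome 17 included the shares of all pairs. The number of 6 h peaks per 0 h peak ranged from 1.71 on chromosome 17 to 2.27 on chromosome 13, and the share of 0 h peaks lost from 23.6% (21.1 to 26.3%) on chromosome 6 to 34.2% (28.5 to 40.3%) on chromosome X.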

How the data were processed

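Per the labels' protocols, ELAND aligned 36 bp reads to mm8, tolerating 2 mismatches, and only reads with 1 position entered, once per start coordinate. How peaks were called, at which threshold and against which input is not given in the sources used here. The authors deposited for each factor peak a fold enrichment (a ratio to a background not described) and a peak height (a read signal, 12 at the lowest). For H3K9ac regions they deposited a false discovery rate, a kind of q-value, and an average read count (a signal). H3K9ac values were not used, only positions.

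Peaks were paired by overlap of 1 bp or more. Gaps run between edges. Ranks within a list are by height, with ties sharing a rank, and a change of 25 points among the one-to-one pairs was called. An H3K9ac region was near at a gap under 1 kb. Shares have Wilson, differences Newcombe and medians order-statistic intervals, all at 95% and for counting error only; no test across libraries is possible with 1 library per time. Named sites are the extremes of each measure, 3 per rule, with ties broken by fold enrichment. The members, rules and classes were chosen with earlier results of these data known. The code was tested on simulated lists. Python 3.11.15, numpy 2.4.6, pandas 2.3.3, scipy 1.17.1, statsmodels 0.14.6 and matplotlib 3.10.9 were used. Alternatives changed the overlap, the threshold, the list length, the chromosomes, the ranked measure, the called change and the distances. Gene names, sequences and motifs were not analysed here, since no mm8 genome or annotation was used, and the input libraries and the list of input bias were not used here.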

Additional observations from a re-analysis of the deposited data

How the results depend on the processing

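No paired analysis was possible because each time is 1 library. Each result was counted once per alternative that applied to it, so the counts here are cases and not separate alternatives. Differences between shares kept the direction and the side of 0 of the interval in 55 cases. The interval came past 0 in 7 cases, and the difference reversed in 6. Shares stayed within their interval in 23 cases and moved in 17, and medians in 9 and 1, with 1 reversed. The differences in GR and H3K9ac 24 h between risen and fallen pairs and between near and far new peaks kept their direction under all alternatives run, but not their size: near minus far for GR went from 3.53 to 7.82 points with the stronger peaks, and within 10 kb of a region it went from 2.26 to 7.90 for H3K9ac 24 h and from 4.64 to 13.5 for H3K9ac 0 h. Unknown depth limits every statement on new and lost peaks and on the change of width. Having 1 library per time also limits every statement on risen and fallen pairs.

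One-to-one pairs made up 98.3% of paired 0 h peaks with 50% of the shorter peak required, 86.5% with centres within 1 kb and 98.8% with the stronger peaks of each list, against 97.6%. Centres within 1 kb gave 21.8% of new peaks and 27.6% of lost peaks under 10 kb from the other list, and the stronger peaks gave 14.5% and 17.4%; shorter lists leave fewer neighbours. With the 6 h list limited to the length of the 0 h list, the median change in the whole lists was -2.22 points, the median change of width 47 bp, 67.2% of pairs were wider, and 21.2% of lost peaks were under 10 kb from a 6 h peak. Pairs rose and fell in 22.6% and 22.5% of cases with the stronger peaks, 36.1% and 36.5% with a change of 10 points, 10.5% and 10.7% with 40 points, and 27.5% and 13.4% with percentiles of the whole lists.

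For H3K9ac 0 h, risen minus fallen was -1.89 points with 50% overlap, -3.97 with equal list lengths, -2.17 on autosomes alone, -2.13 by fold enrichment and -1.85 with a change of 10 points, with intervals past 0. For H3K9ac 240 h it was 1.43 with the stronger peaks, 1.73 with equal lengths, 0.937 by fold enrichment and 0.915 with a change of 10 points, and -2.70 within 10 kb of a region, the only one of these 5 whose interval left out 0. Near minus far new peaks for H3K9ac 240 h was -0.532 with the stronger peaks, -0.287 by overlap with a region and 5.39 within 10 kb. The cause of these changes was not tested.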
